A study of Mus musculus with 8 samples.

Results

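The proliferation and mitosis genes described here are 44 genes, chosen by symbol, that make up much of the machinery of DNA replication and cell division. All 44 were found among the 23401 gene IDs of the deposited table of the whole series. Of these, 16 act at the transition into S phase and in DNA synthesis (G1/S members) and 28 act in G2 phase and mitosis (G2/M members). RNA sequencing was done on mouse astrocytes, the supporting glial cells of the brain, in 4 groups of 2 libraries each: MGS at day 32, conventional culture (CV) at day 32, MGS at day 5 and CV at day 5. The labels do not spell out the letters MGS, and they describe those libraries as soft and the CV libraries as hard. They name no strain, genotype, age or added agent, and nothing in them says whether the libraries of a group came from separate cultures. The p-values below therefore reflect the spread from library to library, and that spread may be technical.

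A cell enters division when D-type cyclins release E2F transcription factors from the retinoblastoma protein, and E2F then switches on cyclin E, the helicase loaded at replication origins and the enzymes that supply nucleotides. Later in the cycle the MuvB complex, with MYBL2 and then FOXM1, drives the genes for cyclin B, the mitotic kinases, the kinetochore and the spindle, while in resting cells the DREAM complex keeps the same genes off. Astrocytes of the adult brain rarely divide, whereas astrocytes taken from newborn brain and grown on culture plastic divide readily.

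Sequencing depth, as aligned bases, was between 2.15 and 4.69 gigabases per library, and the CV libraries were the shallower ones at both days. Levels are in TPM, a transcript abundance scaled to transcript length and to an equal total per library. Each group has 2 libraries, and the libraries of CV at day 32 differed most from each other: the median member was 0.38 higher (log2) in library 2 than in library 1, and the median of all genes tested was 0.32 higher. The marker genes of other cells also differed between the groups. The summed TPM of 10 microglia markers was 1123 and 1096 in MGS at day 32, 13880 and 15230 in CV at day 32, 889 and 912.8 in MGS at day 5, and 39.58 and 39.79 in CV at day 5, where Aif1 was listed at 0 in 1 library. The summed TPM of 8 astrocyte markers was 13070 and 13040 in MGS at day 32, 1266 and 1667 in CV at day 32, 16380 and 16570 in MGS at day 5, and 3152 and 3358 in CV at day 5. For 10 markers of meningeal fibroblasts the sums were 13690 in both MGS libraries at day 32, 337.3 and 477.6 in CV at day 32, 12180 and 14070 in MGS at day 5, and 386.8 and 363.9 in CV at day 5. The sums of 7 neural stem and progenitor markers were 2305 and 2164 in MGS at day 32, 2902 and 2848 in CV at day 32, 2471 and 2523 in MGS at day 5, and 5235 and 5108 in CV at day 5. Those of 6 oligodendrocyte precursor markers were 421.7 and 464.2 in MGS at day 32, 382.4 and 407.6 in CV at day 32, 286 and 296 in MGS at day 5, and 686.9 and 629.1 in CV at day 5. Those of 7 oligodendrocyte markers were 1079 and 1098 in MGS at day 32, 143.2 and 163.4 in CV at day 32, 1522 and 1575 in MGS at day 5, and 111.6 and 104.3 in CV at day 5. Single markers did not all move with their sum, which is carried by the most abundant ones. In the model fitted below, MGS against CV at day 5 had 4 of 8 astrocyte markers higher and 1 lower (median log2 fold change 0.47). Of the 6 oligodendrocyte precursor markers 3 were higher and 2 lower there (median 1.27). Among all genes tested, 22.5% were called higher and 26.4% lower in that comparison. At day 32, 4 of the 7 neural stem and progenitor markers were higher in MGS and 3 lower (median 1.37). Their share of higher calls was near the 52.8% of all genes, and 14.8% of all genes were called lower. The part of these cell types in the differences below was not tested. In bulk RNA, fewer dividing cells and less of a transcript per cell cannot be told apart.

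The promoters of the members differ in letters by the phase in which the genes act, and 8 of them are shown because they hold the motifs counted below. The RefSeq promoter table (GRCm38.p6, the assembly also called mm10) gave a window of 300 bases, 250 before and 50 after the start, for 36 of the 44 members, 23 of them G2/M and 13 G1/S. The G2/M members shown are Cdk1 (chr10:69352913-69353012, minus strand), Cdc20 (chr4:118437344-118437423, minus strand), Top2a (chr11:99024190-99024309, minus strand), Ube2c (chr2:164769829-164769928, plus strand) and Kif11 (chr19:37376322-37376381, plus strand). The G1/S members shown are Mcm5 (chr8:75109339-75109508, plus strand), Mcm6 (chr1:128359706-128359825, minus strand) and Rrm1 (chr7:102441595-102441694, plus strand). Each sequence lies upstream of its start and runs 5′ to 3′ on the strand of the gene. Capitals mark the cell cycle homology region (CHR, TTTGAA or its variant TTCGAA), the CCAAT box bound by NF-Y, and the E2F motifs TTCCCGC as well as TTCGCGC as well as TTGCCGC as well as TTGGCGC, all on either strand, so that TTCAAA and ATTGG are the same motifs read from the other strand. E2F motifs on opposite strands overlap in Mcm5 and Mcm6. The stretches were chosen for their motifs and do not stand for all promoters of their phase. Other matches lie outside them, such as the E2F motifs TTGGCGC at -178 and TTCGCGC at -130 of the G2/M member Cdk1.
Cdk1: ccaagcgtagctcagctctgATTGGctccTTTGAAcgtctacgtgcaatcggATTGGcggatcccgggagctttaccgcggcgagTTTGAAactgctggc
Cdc20: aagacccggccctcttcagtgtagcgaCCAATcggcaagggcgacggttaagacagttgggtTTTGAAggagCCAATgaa
Top2a: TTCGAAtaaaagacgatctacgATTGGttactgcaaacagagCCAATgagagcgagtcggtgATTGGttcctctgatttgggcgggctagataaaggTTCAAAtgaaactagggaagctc
Ube2c: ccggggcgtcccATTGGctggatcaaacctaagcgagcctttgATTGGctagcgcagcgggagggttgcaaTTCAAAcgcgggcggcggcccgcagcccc
Kif11: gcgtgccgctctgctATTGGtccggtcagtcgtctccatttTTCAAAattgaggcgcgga
Mcm5: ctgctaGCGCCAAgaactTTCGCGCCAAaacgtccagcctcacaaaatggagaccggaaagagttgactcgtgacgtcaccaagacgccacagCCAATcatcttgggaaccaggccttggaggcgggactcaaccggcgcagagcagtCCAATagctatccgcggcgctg
Mcm6: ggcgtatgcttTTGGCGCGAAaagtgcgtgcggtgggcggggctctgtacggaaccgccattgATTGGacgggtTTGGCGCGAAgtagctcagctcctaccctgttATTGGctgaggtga
Rrm1: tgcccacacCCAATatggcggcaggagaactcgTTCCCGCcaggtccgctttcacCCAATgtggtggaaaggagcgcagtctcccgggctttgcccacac

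The CHR is the element through which MuvB complexes reach late cell cycle genes. Its main form TTTGAA was present in 17 of 23 G2/M promoters (73.9%), in 1 of 13 G1/S promoters (7.69%, Mcm2), and in 20.2% of all 27025 genes in the table. These counts include the 50 bases after the start. Upstream of the start the main form was present in 8 of the 23, in 1 of the 13 and in 4934 of the 27025. The variant TTCGAA, counted apart, was present in 13.0% of the G2/M promoters, in 7.69% of the G1/S promoters (Mcm7) and in 1.8% of all genes. The main form and a CCAAT box occurred together in 69.6% of the G2/M promoters, 7.69% of the G1/S promoters and 8.97% of all genes. Upstream of the start they did so in 8 G2/M promoters, 1 G1/S promoter and 1984 of all genes. The E2F motifs were most frequent in the G1/S promoters, with 13.0% of the G2/M promoters, 46.2% of the G1/S promoters and 10.9% of all genes. These are matches of letters within 1 window and no record of binding.

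**Figure D1:**
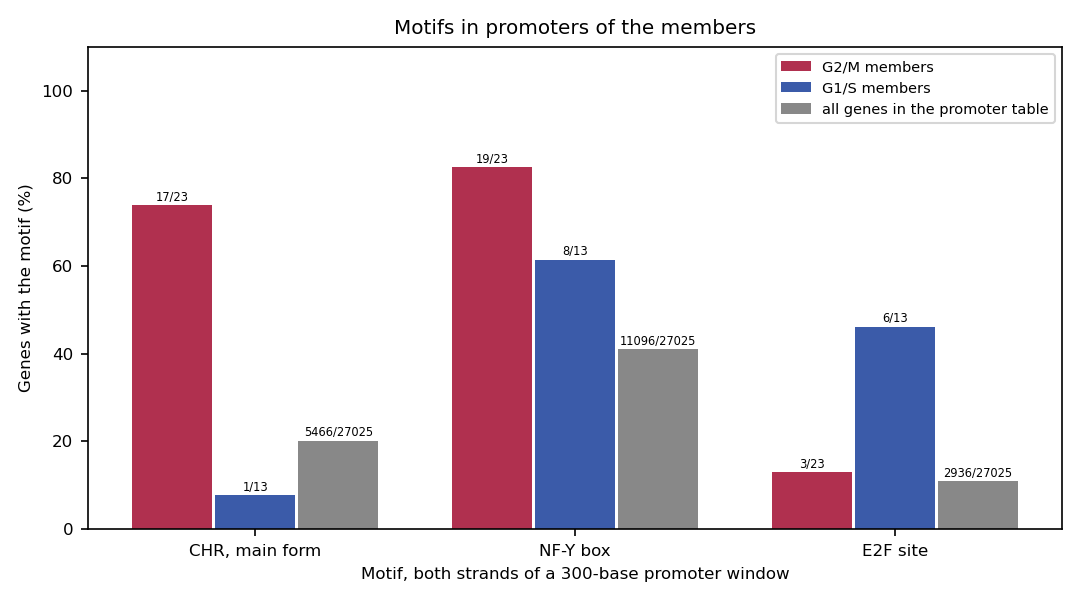
Share of genes (percent, vertical axis) whose 300-base promoter window holds each motif on either strand, for G2/M members, G1/S members and all genes in the promoter table; the numbers over the bars are genes with the motif over genes with a promoter. The CHR, counted in its main form without the variant, stands highest in the G2/M members, at 73.9%, and the E2F motifs in the G1/S members, at 46.2%.

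At day 5 the division genes were lower in MGS than in CV almost without exception. The ratio of the mean TPM in MGS to that in CV had a median of 0.365 over the 44 members, from 0.0772 for Ccnd1 to 0.772 for Ccne1. In the model fitted across 14904 genes (limma with Benjamini-Hochberg adjustment, called at an adjusted p under 0.05), 43 of 44 members were lower in MGS and 0 were higher. Among all genes tested, 26.4% were called lower and 22.5% higher. All 44 members were lower in both MGS libraries than in either CV library, which held for 49.2% of all genes. The median log2 fold change, on the log2(TPM + 1) scale that understates the change of low genes, was -1.43 for the members and -0.14 for all genes.

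**Figure D2:**
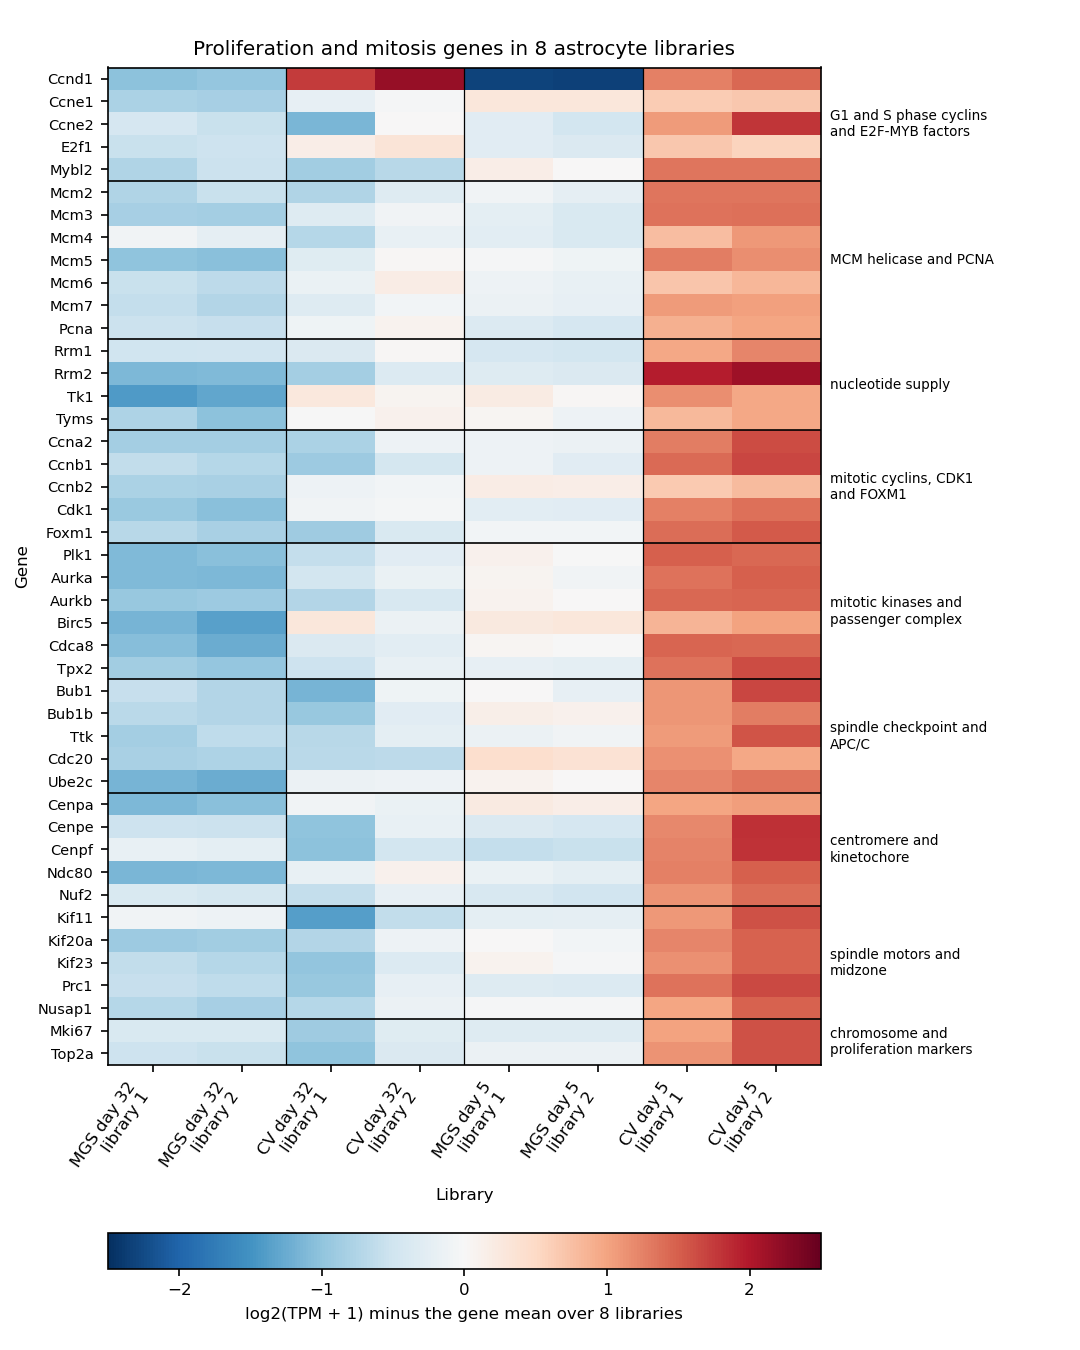
Level of each of the 44 members (rows, grouped by role) in each of the 8 libraries (columns), as log2(TPM + 1) minus the mean of the gene over the 8 libraries; red is above and blue below that mean. The 2 CV libraries at day 5 are above the mean for all members, and Ccnd1 is the one member whose highest values are in CV at day 32.

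Ccnd1, which encodes cyclin D1, the cyclin that starts the G1 programme (chromosome 7, 144929931 to 144939925, minus strand, mm10), had the largest culture difference of all members. It stood at 68.0 and 66.6 TPM in MGS at day 5, against 822 and 922 TPM in CV at day 5. Both MGS libraries were more than an order of magnitude lower. The log2 fold change was -3.67 (SE 0.14, adjusted p = 2.11e-06). An exon of a gene on the opposite strand, LTO1, overlaps Ccnd1, and the use of strand in the counting is not given in the sources used here. Of the other 4 members that act with it at the start of the cycle, Ccne2 (-1.79), a cyclin E gene, Mybl2 (-1.25), the MYB factor of the MuvB complex, and E2f1 (-0.94), the founding E2F factor, were called lower. E2f1 stood at 20.8 and 19.7 TPM in MGS and at 41.5 and 38.3 TPM in CV (SE 0.13, adjusted p = 0.000759), and Ccne2 at 5.39 and 4.72 TPM in MGS and 15.2 and 25.9 TPM in CV (SE 0.39, adjusted p = 0.00731). The other cyclin E gene, Ccne1, was the member that missed the threshold: it had 26.2 and 26.1 TPM in MGS and 33.4 and 34.3 TPM in CV (-0.36, SE 0.13, adjusted p = 0.0514).

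The replication genes were lower as a block. All 6 subunits of the MCM helicase, which unwinds DNA at origins, were called, from Mcm6 (-0.92) through Mcm7 (-1.22), Mcm4 (-1.25), Mcm5 (-1.29) and Mcm2 (-1.49) to Mcm3 (-1.67). Mcm2 stood at 46.7 and 42.6 TPM in MGS, against 126 and 127 TPM in CV (SE 0.16, adjusted p = 0.000265). Pcna, the sliding clamp of DNA polymerase, stood at 230.3 and 218 TPM in MGS, against 541 and 577 TPM in CV (-1.32, SE 0.10, adjusted p = 4.61e-05). Within both genes the libraries of each culture lay close together and the cultures were far apart. Of the 4 nucleotide genes, Rrm2, the S phase subunit of ribonucleotide reductase, moved most: it had 62.7 and 61.0 TPM in MGS, against 311 and 348 TPM in CV (-2.39, SE 0.17, adjusted p = 2.67e-05). Its partner subunit Rrm1 (-1.54), thymidine kinase Tk1 (-0.95) and thymidylate synthase Tyms (-0.93) were also called lower.

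All 28 G2/M members were called lower at day 5, with log2 fold changes from -2.10 to -0.54. Mki67, the gene of the antigen by which dividing cells are usually stained, stood at 24.2 and 24.4 TPM in MGS, against 62.8 and 94.3 TPM in CV (-1.62, SE 0.24, adjusted p = 0.00121). Top2a, the topoisomerase that untangles chromosomes, stood at 74.4 and 74.6 TPM in MGS, against 182 and 251 TPM in CV (-1.51, SE 0.23, adjusted p = 0.00128). In both genes the CV libraries were well apart from each other and both far above MGS. Cdk1, the kinase that starts mitosis, had 52.8 and 52.0 TPM in MGS, against 154 and 167 TPM in CV (-1.59, SE 0.11, adjusted p = 2.27e-05). Its cyclins Ccnb1 (-1.75), Ccna2 (-1.59) and Ccnb2 (-0.54) and the transcription factor Foxm1 (-1.54) were lower with it. Ccnb1 stood at 49.1 and 43.5 TPM in MGS and 144 and 173 TPM in CV (SE 0.18, adjusted p = 0.00019), Ccna2 at 49.5 and 49.3 TPM in MGS and 133 and 171 TPM in CV (SE 0.22, adjusted p = 0.000818), and Foxm1 at 22.3 TPM in both MGS libraries and 63.6 and 69.9 TPM in CV (SE 0.18, adjusted p = 0.000382). No member of this group overlapped between the cultures, and Ccnb2 differed least.

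The mitotic kinases and their partners showed log2 fold changes from -1.73 to -0.66: Tpx2 (-1.73), the activator of Aurora A, Aurka (-1.43) and Aurkb (-1.39), the Aurora kinases themselves, Plk1 (-1.43), the polo-like kinase of the centrosome and kinetochore, and the chromosomal passenger subunits Cdca8 (-1.43) and Birc5 (-0.66). Plk1 stood at 56.8 and 52.7 TPM in MGS and 152 and 145 TPM in CV (SE 0.13, adjusted p = 0.000107). Birc5, also called survivin, stood at 73.6 and 75.2 TPM in MGS and 112 and 125 TPM in CV (SE 0.16, adjusted p = 0.0117). Its difference was among the smallest of the members, and so was that of Cdc20, the activator of the anaphase-promoting complex, with 142 and 136 TPM in MGS and 234 and 206 TPM in CV (-0.66, SE 0.10, adjusted p = 0.00144). The other checkpoint members, the kinases Bub1 (-1.49), Bub1b (-1.07) and Ttk (-1.44), and the ubiquitin-conjugating enzyme Ube2c (-1.22) were lower too. At the kinetochore, Cenpf stood at 7.12 and 7.42 TPM in MGS and 28.1 and 42.3 TPM in CV (-2.10, SE 0.25, adjusted p = 0.000416), followed by the motor Cenpe (-1.91), the NDC80 complex subunits Nuf2 (-1.69) and Ndc80 (-1.59), and the centromeric histone Cenpa (-0.83). Spindle motors and midzone proteins ran from Prc1 (-1.83), Kif11 (-1.57) and Kif20a (-1.38) to Kif23 (-1.28) and Nusap1 (-1.27).

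Across the TPM values and the 4 other scalings tried (median-of-ratios, quantile, FPKM, and values corrected by bins of transcript length and of GC content), 40 members were called lower at day 5 under every one, and 38 under every alternative tried. The share of all genes called lower under every scaling is not given. Of all genes, 7819 of 14904 were called under median-of-ratios scaling (57.2% of the calls higher) and 8645 under quantile normalization (43.9%). With FPKM 7343 of 13989 were called (51%), and after the correction 9620 of 14801 (40.25%). Of the 43 members, Birc5 missed the threshold under all 4 other scalings (from -0.56 to -0.44, adjusted p from 0.0579 to 0.158). Ccnb2 (-0.31, adjusted p = 0.057) and Cdc20 (-0.43, adjusted p = 0.0519) missed it under median-of-ratios scaling. Where 1 library was left out, the count lay between 40 and 44.

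At day 32 the difference between the cultures was uneven among the members. The ratio of mean TPM in MGS to that in CV had a median of 0.729, from 0.127 for Ccnd1 to 1.86 for Kif11. In the fit, 21 members were lower in MGS and 1 was higher, against 14.8% of all genes called lower and 52.8% called higher. Of the members, 26 were lower in both MGS libraries than in either CV library, which held for 20.9% of all genes, 2 were higher in both (63.6% of all genes), and 16 overlapped. The median log2 fold change was -0.42 for the members and 0.56 for all genes, so that an average gene was higher in MGS on this scale. Under median-of-ratios scaling, which takes out that shift, 36 members were lower and 0 higher, and under quantile normalization 41 and 0. With FPKM the counts were 33 and 0, and after the correction for length and GC content 42 and 0. The 14.8% of all genes called lower belongs to the TPM scale alone. Of all genes, 10310 of 14904 were called under median-of-ratios scaling (54.8% of the calls higher) and 10109 under quantile normalization (47.1%). With FPKM 9589 of 13989 were called (60.1%), and after the correction 10473 of 14801 (44.1%).

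**Figure D3:**
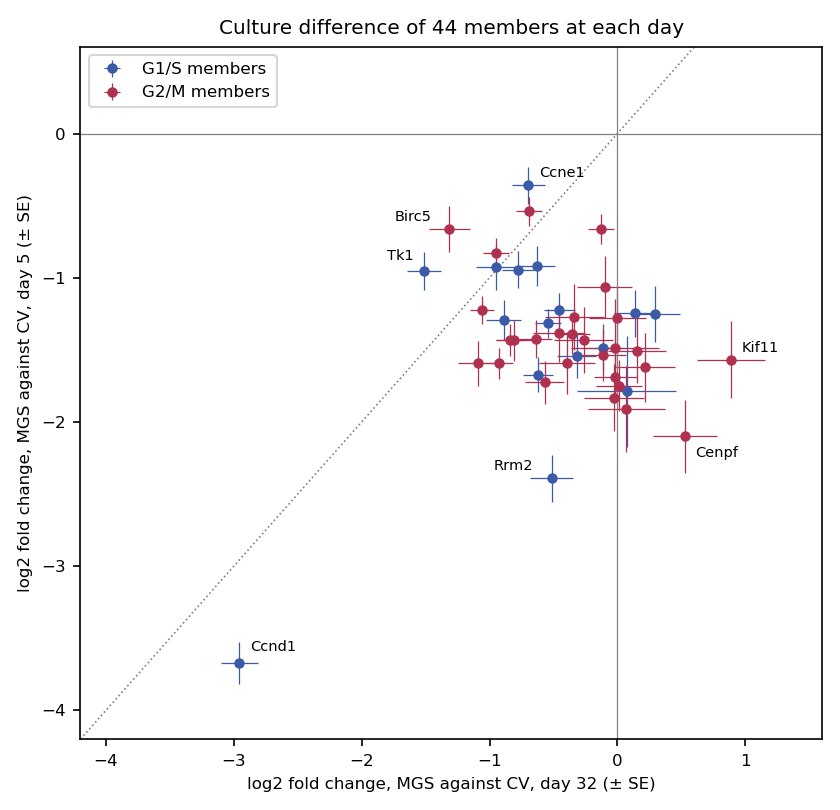
Log2 fold change of MGS against CV at day 32 (horizontal) and at day 5 (vertical) for the 44 members, with the standard error of the model as bars and the line of equal change dotted; blue points are G1/S and red points G2/M members. Ccnd1 lies far from the other members at both days, Kif11 is the member called higher at day 32, and Birc5 and Tk1 lie on the side of a larger difference at day 32.

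The 21 members called lower in MGS at day 32 on the TPM scale were called lower under each of the 4 other scalings as well. They comprised 11 G1/S and 10 G2/M members. The share of all genes called lower under every scaling is not given. Ccnd1 again came first, with 166 and 174 TPM in MGS, against 1149 and 1538 TPM in CV (-2.96 on the log2 scale, SE 0.14, adjusted p = 4.05e-06). Tk1, with 23.6 and 25.6 TPM in MGS, against 77.3 and 67.2 TPM in CV (-1.51, SE 0.13, adjusted p = 5.77e-05), and Birc5, with 27.3 and 23.6 TPM in MGS, against 75.0 and 55.8 TPM in CV (-1.32, SE 0.16, adjusted p = 0.000307), came next. In these 3 genes the MGS libraries were clearly below both CV libraries. An exon of Afmid on the opposite strand overlaps Tk1. Among the entry genes E2f1 had 17.1 and 17.5 TPM in MGS, against 28.6 and 32.3 TPM in CV (-0.78, SE 0.13, adjusted p = 0.00136), and Ccne1 had 11.8 and 11.5 TPM in MGS, against 18.3 and 20.8 TPM in CV (-0.70, SE 0.13, adjusted p = 0.00237). Of the replication and nucleotide genes, Tyms (-0.95), Mcm5 (-0.89), Mcm6 (-0.63), Mcm3 (-0.62), Pcna (-0.54), Rrm2 (-0.52) and Mcm7 (-0.45) were lower. Pcna stood at 199.5 and 196 TPM in MGS, against 269 and 308 TPM in CV (SE 0.10, adjusted p = 0.00257), and Rrm2 at 35.9 and 36.3 TPM in MGS, against 43.6 and 62.0 TPM in CV (SE 0.17, adjusted p = 0.0258). The CV libraries of Rrm2 differed from each other by more than the lower of them differed from MGS. The G2/M members lower at day 32 were Birc5, Ndc80 (-1.09), Ube2c (-1.06), Cenpa (-0.95), Cdk1 (-0.93), Cdca8 (-0.84), Aurka (-0.81), Ccnb2 (-0.69), Plk1 (-0.64) and Tpx2 (-0.57). Cdk1 stood at 33.1 and 30.1 TPM in MGS, against 60.04 and 61.7 TPM in CV (SE 0.11, adjusted p = 0.00023), and Plk1 at 24.0 and 25.2 TPM in MGS, against 34.9 and 43.1 TPM in CV (SE 0.13, adjusted p = 0.00379).

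Kif11, the motor that pushes spindle poles apart (chromosome 19, 37376403 to 37421859, plus strand), was the member called higher in MGS at day 32. It stood at 21.3 and 20.6 TPM in MGS, against 8.15 and 14.4 TPM in CV (0.89 on the log2 scale, SE 0.27, adjusted p = 0.0203). The call was lost under the 4 other scalings, where the change lay between 0.049 and 0.49, and in a fit of the compared groups alone. Without MGS library 1, MGS library 2 or CV library 1 of day 32, 0 members were called higher, and without CV library 2 of day 32, 5 were. The standard markers of proliferation did not pass the test: Mki67 stood at 23.5 and 23.3 TPM in MGS and 16.3 and 24.7 TPM in CV (0.21, SE 0.24, adjusted p = 0.453), and Top2a at 57.3 and 56.1 TPM in MGS and 40.6 and 63.9 TPM in CV (0.15, SE 0.23, adjusted p = 0.571). In both genes the MGS libraries fell between the CV libraries. After the correction for length and GC content both were lower in MGS, Mki67 at -1.27 (adjusted p = 1.41e-05) and Top2a at -0.96 (adjusted p = 1.22e-05). Ccnb1 stood at 34.4 and 32.1 TPM in MGS and 27.9 and 39.0 TPM in CV (0.01, SE 0.18, adjusted p = 0.965), and its value was lower in MGS under all 4 other scalings, from -0.55 to -0.34. Cenpf stood at 9.91 and 9.47 TPM in MGS and 5.08 and 8.03 TPM in CV (0.53, SE 0.25, adjusted p = 0.0974), but at -0.88 after the correction. Cenpe stood at 7.63 and 7.47 TPM in MGS and 5.15 and 9.81 TPM in CV, so that the MGS libraries fell between the CV libraries; at day 5 it had stood at 8.64 and 8.2 TPM in MGS, against 27.6 and 42.8 TPM in CV. The other members that did not pass on the TPM scale were Ccne2 (0.07), Mybl2 (0.13), Mcm2 (-0.11), Mcm4 (0.30), Rrm1 (-0.32), Ccna2 (-0.40), Foxm1 (-0.11), Cdc20 (-0.13), Aurkb (-0.35), Bub1 (-0.02), Bub1b (-0.10), Ttk (-0.27), Cenpe (0.07), Nuf2 (-0.02), Kif20a (-0.46), Kif23 (0.00), Nusap1 (-0.34) and Prc1 (-0.03).

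Over all genes, transcript length went with the culture difference at day 32, and among the 44 members it did so loosely (Spearman rho 0.333). Over eighths of all genes by length, the median log2 fold change at day 32 was -0.15 in the shortest and 1.37 in the longest, while at day 5 it was 0.11 in the shortest and -0.49 in the longest. The 10 members with a transcript over 4000 bases, among them Cenpf with 11130 bases, Mki67 with 10061, Cenpe with 7910 and Kif11 with 4819, had a median of -0.02 at day 32, and the other 34 had -0.49. Long members further below 0 were Cdk1 (4375 bases, -0.93), Mcm6 (4355, -0.63), Tpx2 (4365, -0.57) and Rrm1 (5475, -0.32). The shorter Mcm4 (3589 bases, 0.30) and Mybl2 (3651, 0.13) were above 0. After the correction, Kif11 was at 0.049 (adjusted p = 0.607), and Mki67, Top2a, Cenpe, Cenpf and Foxm1, the other long members near or above 0, were called lower. The correction also moved the median of all genes at day 32, from 0.56 to -0.083. Shorter members moved too: Ccnb1 (2489 bases) went from 0.01 to -0.34 and Cdc20 (1793 bases) from -0.13 to -0.30. The part of length alone in these changes was not tested. The part of RNA quality in the pattern with transcript length was not tested. Of the microglia markers, 9 of 10 were called lower in MGS at day 32, against 14.8% of all genes. Within CV 10 of 10 were called higher at day 32, against 16.0% of all genes. These markers moved with the same libraries, and their part was not tested either.

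**Figure D4:**
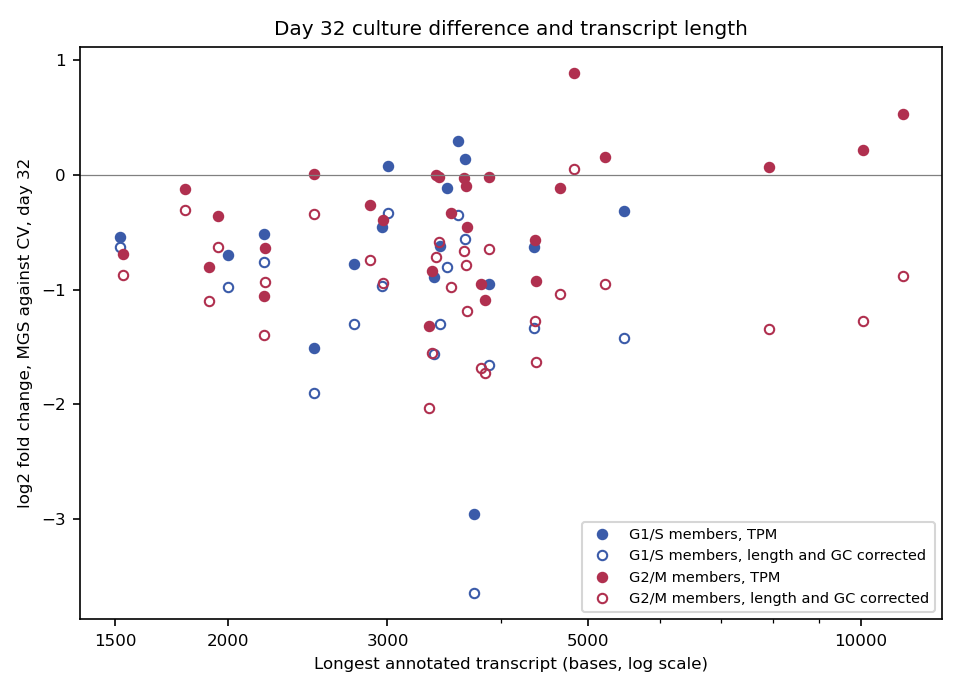
Log2 fold change of MGS against CV at day 32 (vertical) against the longest annotated transcript of each member in bases (horizontal, log scale); filled points are TPM values and open points the values after correction for length and GC content, blue for G1/S and red for G2/M members. The long members Mki67 and Cenpf are at 0.21 and 0.53 in TPM and at -1.27 and -0.88 after the correction.

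Within MGS most division genes were lower at day 32 than at day 5. The ratio of mean TPM at day 32 to that at day 5 had a median of 0.606, from 0.342 for Birc5 to 2.53 for Ccnd1. In the fit 28 members fell and 1 rose, against 7.53% of all genes called lower and 35.0% called higher, and the median log2 fold change was -0.69 for the members and 0.36 for all genes. All 6 mitotic kinase and passenger genes fell, led by Birc5 (-1.52), which had 27.3 and 23.6 TPM at day 32, against 73.6 and 75.2 TPM at day 5 (SE 0.16, adjusted p = 0.000577). Tk1 had 23.6 and 25.6 TPM at day 32, against 74.9 and 65.8 TPM at day 5 (-1.48, SE 0.13, adjusted p = 0.000288), and Cenpa had 28.9 and 30.2 TPM at day 32, against 74.2 and 71.8 TPM at day 5 (-1.28, SE 0.10, adjusted p = 0.000193). In all 3 genes the days were far apart and the libraries of a day close together. Ube2c (-1.25), Cdc20 (-1.18), Cdca8 (-1.17), Plk1 (-1.12), Aurka (-1.11) and Ccne1 (-1.10) also fell at least 2-fold. Ccnd1 was the member that rose, to 166 and 174 TPM at day 32, against 68.0 and 66.6 TPM at day 5 (1.33, SE 0.14, adjusted p = 0.000667), and it did so under every alternative tried. Mki67 did not pass the test, with 23.5 and 23.3 TPM at day 32 and 24.2 and 24.4 TPM at day 5 (-0.053, SE 0.24, adjusted p = 0.87), though at -1.07 (adjusted p = 0.000126) after the correction for length and GC content. All 28 falls were called under each of the 4 other scalings, though the share of all genes that did so is not given. Under these scalings the median of the members was -1.06 (median-of-ratios), -1.24 (quantile), -0.87 (FPKM) and -1.12 (correction). Leaving out any 1 MGS library reduced the count to 14 without day 5 library 1 or day 32 library 2, and to 15 without day 5 library 2 or day 32 library 1.

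Within CV nearly all division genes were lower at day 32 than at day 5. The ratio of mean TPM at day 32 to that at day 5 had a median of 0.292, from 0.16 for Rrm2 to 1.54 for Ccnd1. In the fit 43 members fell and 1, Ccnd1, rose, against 37.7% of all genes called lower and 16.0% called higher, and the median log2 fold change was -1.75 for the members and -0.31 for all genes. Rrm2 had 43.6 and 62.0 TPM at day 32, against 311 and 348 TPM at day 5 (-2.64, SE 0.17, adjusted p = 2.15e-05). Kif11 had 8.15 and 14.4 TPM at day 32, against 48.9 and 70.6 TPM at day 5 (-2.33, SE 0.27, adjusted p = 0.000427), and Cenpf had 5.08 and 8.03 TPM at day 32, against 28.1 and 42.3 TPM at day 5 (-2.26, SE 0.25, adjusted p = 0.000379). The libraries of a day differed from each other in Kif11 and Cenpf, but the days did not overlap. Ccnb1 (-2.22), Cenpe (-2.12), Mybl2 (-2.11), Foxm1 (-2.10), Prc1 (-2.08), Top2a (-2.04), Bub1 (-2.03) and Aurkb (-2.01) fell at least 4-fold. The smallest falls were those of E2f1 (-0.38, SE 0.13, adjusted p = 0.0389), Mcm6 (-0.74), Ccne1 (-0.76), Ccnb2 (-0.82), Tyms (-0.84) and Birc5 (-0.86). Ccnd1 stood at 1149 and 1538 TPM at day 32, against 822 and 922 TPM at day 5 (0.61, SE 0.14, adjusted p = 0.0109). That rise missed the threshold under quantile normalization, in a fit of the compared groups alone and without CV library 1 of day 5. The falls of 40 members were called under TPM and the 4 other scalings, a criterion for which the share of all genes is not given. The other 3 were E2f1, which missed the threshold under median-of-ratios scaling (-0.0092, adjusted p = 0.959), quantile normalization and FPKM, Tk1, which missed it under median-of-ratios scaling (-0.54, adjusted p = 0.0615), and Birc5, which missed it there (-0.48, adjusted p = 0.118) and after the correction (-0.52, adjusted p = 0.0995). The median of the members within CV was -1.38 under median-of-ratios scaling, -1.40 under quantile normalization, -1.44 with FPKM and -1.39 after the correction, so that it lay nearer to the median within MGS under each of these than in TPM. The difference of these medians was not tested. Summed over the 44 members, TPM was 1479 and 1453 in MGS at day 32, 2840 and 3557 in CV at day 32, 2183 and 2084 in MGS at day 5, and 5845 and 6502 in CV at day 5. Ccnd1 made up 1149 and 1538 TPM of the CV sums at day 32.

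**Figure D5:**
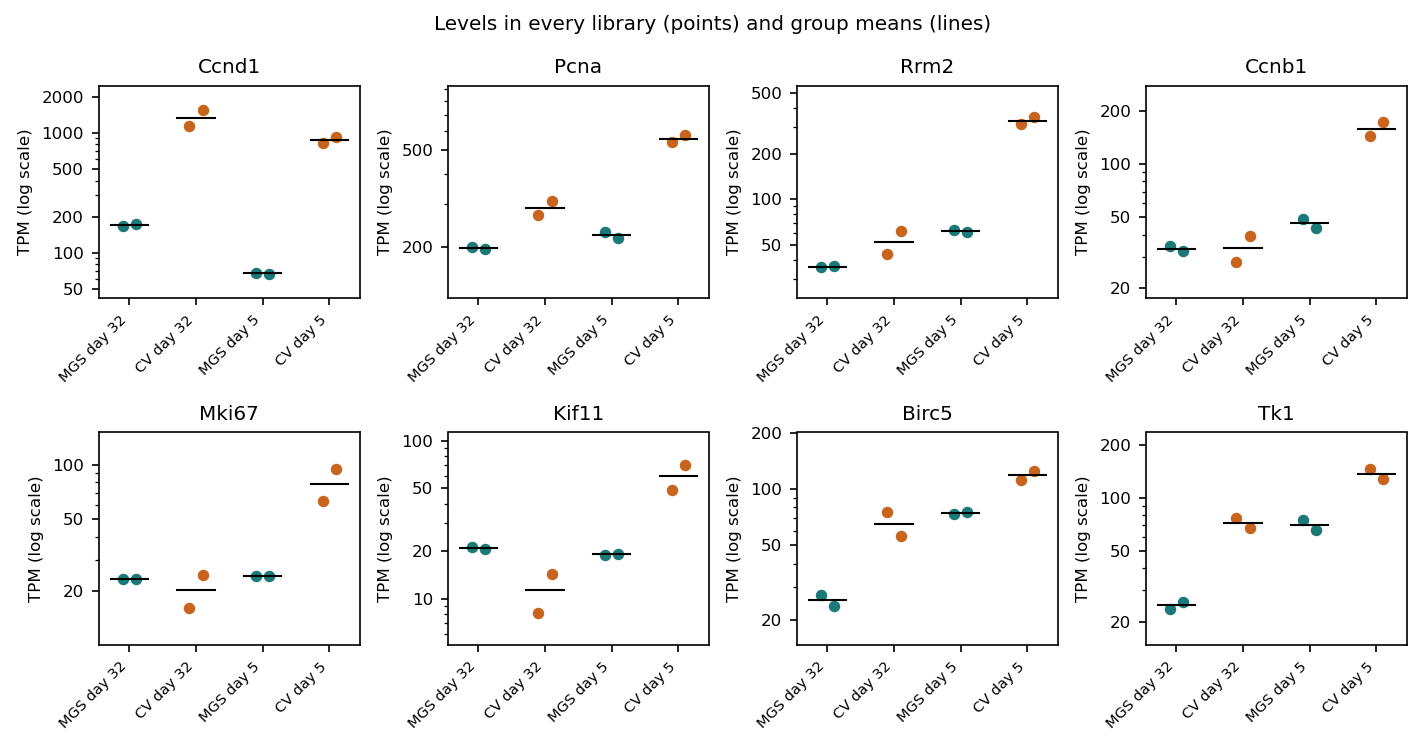
TPM (vertical, log scale) of 8 members in every library (points) with the group mean (line), with MGS in teal and CV in orange. Ccnd1 is highest in CV at day 32, Rrm2, Ccnb1, Mki67 and Kif11 stand apart in CV at day 5 alone, and Birc5 and Tk1 are lowest in MGS at day 32.

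The interaction of culture and day asks whether the difference between MGS and CV was the same at both days; it is the log2 fold change of MGS against CV at day 32 minus that at day 5. On the TPM scale 33 members had a positive and 2 a negative interaction, against 49.7% of all genes called positive and 12.3% called negative, and the median was 1.00 for the members and 0.65 for all genes. The shared shift of all genes is large here, and the counts moved with it. They were 17 and 9 under median-of-ratios scaling and 15 and 9 under quantile normalization. With FPKM they were 21 and 5, and after the correction for length and GC content 21 and 6. Of all genes, 8964 of 14904 were called under median-of-ratios scaling (50.45% of the calls positive) and 8919 under quantile normalization (52.4%). With FPKM 8420 of 13989 were called (60.4%), and after the correction 8592 of 14801 (54.85%). Called positive under TPM and all 4 of these scalings were 9 members. They were the G1/S members Rrm2 (1.88), Mcm4 (1.55) and Mcm2 (1.38), and the G2/M members Cenpf (2.63), Kif11 (2.46), Prc1 (1.80), Ccnb1 (1.76), Nuf2 (1.67) and Foxm1 (1.43). The share of all genes that met this criterion is not given. For Rrm2 (SE 0.23, adjusted p = 0.000681) the difference at day 32 was -0.52 and that at day 5 was -2.39. The members called negative were Birc5 (-0.65, SE 0.23, adjusted p = 0.0379) and Tk1 (-0.56, SE 0.19, adjusted p = 0.033), whose deficit in MGS was larger at day 32. Both were called negative under the 4 other scalings, but with array weights by group, or without either MGS library of day 5, without CV library 2 of day 5 or without either MGS library of day 32, 0 members were, and without CV library 1 of day 5 the count was 1. For Ccnd1 (0.72, SE 0.20, adjusted p = 0.0191) the value was -0.048 under median-of-ratios scaling.

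Set side by side on the TPM scale, G2/M members had the lower median in each comparison of cultures or days except that of the cultures at day 32. In the interaction they had the higher median, 1.095 against 0.773 for the G1/S members. At day 5 the median log2 fold change of MGS against CV was -1.46 for the G2/M members and -1.27 for the G1/S members, a difference of -0.19, which was 0.012 after the correction for length and GC content. At day 32 it was -0.30 for the G2/M members and -0.58 for the G1/S members, with 10 of 28 and 11 of 16 called lower. That difference of 0.28 was -0.077 under quantile normalization. From day 5 to day 32 the medians were -0.72 for the G2/M members and -0.48 for the G1/S members in MGS, a difference of -0.23, and -1.83 for the G2/M members and -1.25 for the G1/S members in CV, a difference of -0.58. Both time differences were below 0 under every alternative. These medians are descriptions of lists without a test. The summed TPM of the G2/M members was 713 and 690.2 in MGS at day 32, 893 and 1066 in CV at day 32, 1281 and 1234 in MGS at day 5, and 2949 and 3389 in CV at day 5. The summed TPM of the G1/S members without Ccnd1 was 599 and 588 in MGS at day 32, 799 and 953 in CV at day 32, 834 and 783 in MGS at day 5, and 2074 and 2191 in CV at day 5. Both sums were therefore highest in CV at day 5 and lowest in MGS at day 32.

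Other cell cycle genes, taken from lists that hold no member, moved much as the members did at day 5. These lists too were chosen with earlier results of these data known, so they are no separate check. Of 35 other S phase genes, 33 were lower in MGS and 0 higher, led by Clspn (-1.91), a replication checkpoint adaptor, Hells (-1.74) and Atad2 (-1.72). Of 36 other G2 and M phase genes, 32 were lower and 0 higher, against the 26.4% and 22.5% of all genes given above, led by Ckap2 (-2.52), a spindle protein, the kinase gene Pbk (-2.37) and the cytokinesis regulator Ect2 (-2.28). Ccnd2, the gene of cyclin D2, stood at 72.3 and 77.1 TPM in MGS and 529 and 700.4 TPM in CV (-3.01, SE 0.30, adjusted p = 0.000176). At day 32 the same lists were mixed on the TPM scale, with 15 of the 35 S phase genes lower and 5 higher and 12 of the 36 G2 and M phase genes lower and 8 higher, against 14.8% of all genes lower and 52.8% higher. After the correction for length and GC content these became 27 lower and 0 higher, and 27 lower and 3 higher. Of all genes, 10473 of 14801 were called after that correction, 44.1% of them higher. Within MGS, 14 of the 35 fell and 1 rose, and 15 of the 36 fell and 4 rose, against 7.53% and 35.0% of all genes. Within CV, 35 of the 35 and 33 of the 36 fell, and 0 rose, against 37.7% and 16.0% of all genes. Of 10 genes of pocket proteins and the DREAM core, 6 were lower and 0 higher at day 5, and 1 was lower and 5 were higher at day 32, a share of higher calls near the 52.8% of all genes. Among the 5 were Rb1, the retinoblastoma gene (1.42, and 0.66 after the correction), and its relative Rbl2 (1.35, and 0.44 after the correction); the correction left 2 of the 10 higher and 4 lower. Of 7 other E2F genes, 4 were lower and 0 higher at day 5, led by the repressors E2f8 (-2.06) and E2f7 (-1.44).

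The genes of the CDK inhibitors, which hold the cycle back, did not run opposite to the members as a group. At day 5, 5 of 7 were lower in MGS and 1 was higher, against 26.4% and 22.5% of all genes. Cdkn1a, of p21, stood at 120.3 and 121 TPM in MGS, against 511 and 517 TPM in CV (-2.08, SE 0.11, adjusted p = 8.14e-06), and Cdkn2c (-1.38), Cdkn2a (-1.32), Cdkn2d (-1.31) and Cdkn2b (-1.17), of the INK4 family, were lower as well. Cdkn1c, of p57, was the exception, with 279 and 283 TPM in MGS, against 12.4 and 11.4 TPM in CV (4.45, SE 0.12, adjusted p = 6.42e-07). Its libraries were an order of magnitude higher in MGS. At day 32 it had 83.0 and 97.8 TPM in MGS, against 30.1 and 31.1 TPM in CV (1.53, SE 0.12, adjusted p = 3.19e-05), and Cdkn1b, of p27, was higher too (0.85, adjusted p = 0.0285), a call that was lost after the correction for length and GC content (0.015). The 5 other inhibitors were lower in MGS at day 32, against 14.8% of all genes, by the widest margin Cdkn2a, with 26.7 and 36.4 TPM in MGS, against 201 and 148 TPM in CV (-2.43, SE 0.26, adjusted p = 0.000155). Over time Cdkn2a and Cdkn2b rose in both cultures, Cdkn2a by 2.03 in MGS and 3.13 in CV and Cdkn2b by 1.80 in MGS and 1.38 in CV. Cdkn1c fell by 1.63 in MGS and rose by 1.29 in CV, while Cdkn1a rose by 0.74 in MGS and did not pass the test in CV (-0.17, adjusted p = 0.215).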

How the data were processed

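Per the submitters' processing notes, the tools were bcl2fastq, HISAT2 2.1.0 and StringTie 1.3.4d, with 2 builds named, hg38 and mm10, and no roles given. Gene positions in the files are those of mm10. Libraries were made from total RNA with a directional kit, per the labels' protocols. The annotation, filters and strand setting of the counting are not given in the sources used here; exons of other genes overlap 11 members on the opposite strand and 3 on the same strand.

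The authors deposited TPM, FPKM and coverage per gene and library, per the file headers. TPM of each of 23420 gene IDs was summed over its rows; for the 44 members this equalled the deposited series table. FPKM, also deposited by the authors, was used in 1 alternative. The deposited coverage values gave the aligned bases. TPM keeps no read counts, so no counting interval is given.

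Groups came from sample titles. Genes with TPM of at least 1 in at least 2 libraries (14904) were tested as log2(TPM + 1) with limma 3.58.1 in R 4.3.3: 4 group means, 8 libraries, 4 residual degrees of freedom, empirical Bayes with a variance trend, two-sided, Benjamini-Hochberg adjustment over all genes. With 2 libraries against 2, an exact permutation test cannot give a p below 0.333, so none was made. The procedure was tested on simulated data. Alternatives were the pseudocount (0.1), no filter, 4 other scalings, a replicate block, a fit of the compared groups alone, no variance trend, array weights and leaving out each library. The length and GC bins used the longest GENCODE M21 transcript (14801 genes, 10 bins of each).

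Replicate numbers were shared between groups, but nothing in the labels says that they mark a shared batch. The members, their phases and roles and the other gene lists were chosen with earlier results of these data known. By rule, all members are named; library values are given for 17 of them and for up to 3 members that rose and 3 that fell most in a comparison, and other lists give up to 3 called genes each and all CDK inhibitors.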

Additional observations from a re-analysis of the deposited data

Results flagged for a closer look

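The difference between MGS and CV was itself different at the 2 days for 18 of the members whose library values are given. This is by the interaction term of the limma model (Benjamini-Hochberg adjusted p under 0.05 on the TPM scale). Kif11, Cenpe and Tk1 are listed because their called interactions were among the largest of the members, so the 18 were partly picked by this result. Of all 44 members, 33 were called positive and 2 negative. Among all genes tested, 49.7% were called positive and 12.3% negative in this interaction. The values are the log2 fold change of MGS against CV at day 32 minus that at day 5. Among G2/M members they were 2.63 for Cenpf, 2.46 for Kif11, 1.98 for Cenpe, 1.83 for Mki67, 1.76 for Ccnb1, 1.66 for Top2a, 1.43 for Foxm1, 1.20 for Ccna2, 0.79 for Plk1, 0.67 for Cdk1, 0.53 for Cdc20 and -0.65 for Birc5. Among G1/S members they were 1.88 for Rrm2, 1.86 for Ccne2, 1.38 for Mcm2, 0.77 for Pcna, 0.72 for Ccnd1 and -0.56 for Tk1. Ccnd1, Mki67, Cdk1, Plk1 and Cdc20 changed sign under at least 1 other scaling, whereas Cenpf, Kif11, Ccnb1, Foxm1, Rrm2 and Mcm2 were called positive under TPM and all 4 others. The share of all genes called positive under every one of them is not given.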

How the results depend on the processing

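At day 32 the count of members called lower in MGS, 21 on the TPM scale, was 36 under median-of-ratios scaling, 41 under quantile normalization, 33 with FPKM, 42 after the correction for length and GC content and 42 with that correction and a replicate block. The count called higher, 1 on the TPM scale, was 0 under each of these and in a fit of the compared groups alone. Leaving out 1 library gave 18 to 30 lower and 0 to 5 higher at day 32. In the interaction the positive and negative counts were 17 and 9 under median-of-ratios scaling, 15 and 9 under quantile normalization, 21 and 5 with FPKM, 21 and 6 after the correction, and 21 and 7 with the correction and the block; with array weights 0 were negative, and leaving out 1 library gave 23 to 36 positive and 0 to 3 negative. Over time within MGS, 28 fell, but 43 with the correction and the block and 14 to 33 without 1 library; 1 rose, but 2 with array weights or in a fit of the compared groups alone. Within CV the 1 rise became 0 under quantile normalization and in a fit of the compared groups alone, and lay between 0 and 1 without 1 library. The G2/M minus G1/S difference of medians became 0.012 at day 5 after the correction, -0.077 at day 32 under quantile normalization, -0.43 (quantile) and -0.31 (correction) within MGS, and -0.37 (correction) within CV. The cause of these shifts was not tested.

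Named members whose sign changed, and that were called on the TPM scale or under the alternative, were at day 32 Mki67 (-0.50 quantile, -1.27 correction), Top2a (-0.38 median-of-ratios, -0.96 correction), Ccne2 (-0.92 quantile), Ccnb1 (-0.51 median-of-ratios, -0.55 quantile, -0.36 FPKM, -0.34 correction) and Cenpf (-0.45 quantile, -0.88 correction). Within MGS it was Cenpf (-0.71 correction). In the interaction they were Mki67 (-0.115 correction), Ccnd1 (-0.048 median-of-ratios), E2f1 (-0.57 median-of-ratios, -0.74 quantile), Cdk1 (-0.084 median-of-ratios, -0.21 correction), Plk1 (-0.0045 quantile) and Cdc20 (-0.22 median-of-ratios). The values with correction and block were the same. Over all named members, 1602 of 1840 alternatives kept direction and side of the threshold, 113 lost a call, 79 gained one, 19 moved and 27 changed sign with a call on at least 1 side. Mcm2 (0.11) and Foxm1 (0.13) were above 0 at day 32, with no call, without CV library 2 of day 32.

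Scaling also moved the share of calls that were higher among all genes, which at day 32 was 78.03% in TPM, 54.8% under median-of-ratios, 47.1% under quantile, 60.1% with FPKM and 44.1% after the correction. At day 5 it was 46.0% in TPM and 57.2% under median-of-ratios. Within MGS it was 82.3% in TPM and 45.9% after the correction, within CV 29.8% and 49.5% (median-of-ratios), and in the interaction 80.1% and 50.5% (median-of-ratios).

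With the replicate number as a block in the model, 43 members were lower at day 5, 21 at day 32, 29 fell within MGS and 42 within CV, and 33 interactions were positive. Same-numbered libraries deviated together with a correlation of 0.0913 between the cultures at day 5, -0.062 between them at day 32, 0.444 between the days in CV, -0.131 between the days in MGS, 0.175 between MGS at day 5 and CV at day 32, and -0.0574 between CV at day 5 and MGS at day 32. With 2 numbers, and labels that give them no meaning, a pairing was not taken as established. With the numbers crossed between the days in MGS, an alternative chosen after seeing the data, 35 members fell and 2 rose, against 35 and 3 with the plain block in the same 4 libraries.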
